A study of Sus scrofa with 15 samples.

Results

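NRF2 and its antioxidant target genes were followed in the liver of LPS-injected piglets. The group holds 10 genes: NFE2L2, KEAP1, GCLC, GCLM, GSR, TXNRD1, SRXN1, NQO1, HMOX1 and SOD2. They were chosen by name, each being the gene of the count table whose Ensembl pig identifier carries that symbol, and all 10 were found among the 31908 genes of the table. The rule that chose them uses the names alone, but the genes were picked with earlier results of these data known. The study asked how lipopolysaccharide (LPS), the endotoxin of Gram-negative bacteria, alters gene expression and m6A RNA methylation in the liver. Male growing-stage piglets of a Duroc x Large White x Landrace cross were given sterile saline (CON group) or 80 μg/kg of LPS (LPS group) into the peritoneum, and livers were taken 4 h later, with 6 piglets per group in the study. The values here are read counts of the input RNA, that is, the polyadenylated and fragmented liver RNA kept aside before m6A immunoprecipitation, from 3 libraries per group. The sample labels do not tie a library to a piglet, so the p-values measure the spread between these libraries.

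NRF2, encoded by NFE2L2, is a transcription factor that binds antioxidant response elements together with small Maf proteins. Its partner KEAP1 carries reactive cysteines and hands NRF2 to a ubiquitin ligase, so that NRF2 is normally destroyed soon after it is made, and oxidants or electrophiles that modify KEAP1 let it accumulate. NRF2 activity is therefore set largely at the protein level, and its target genes are often read as its output: enzymes that make and recycle glutathione, the thioredoxin and sulfiredoxin enzymes, NQO1 and HMOX1. SOD2, the manganese superoxide dismutase of mitochondria, is counted among the antioxidant enzymes and is also a well-known target of NF-κB.

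The CON libraries held 5927348 to 10351491 counts and the LPS libraries 4348478 to 19967417, LPS replicate 3 being the deepest. LPS replicate 2 was nearer to the CON libraries than the other LPS libraries were. Its log2 expression values correlated with those of the CON libraries with r from 0.923 to 0.945, against 0.837 to 0.899 for LPS replicates 1 and 3. Its r with LPS replicates 1 and 3 was 0.907 and 0.853, and these correlated with each other with r of 0.903. Because LPS replicate 2 lay near CON, edgeR values without it are given where they change the call of a named gene. The liver identity of the samples was checked with 13 hepatocyte markers, which were detected in both groups with summed levels of 71811 to 92666 CPM in CON and 61202 to 124280 CPM in LPS. Among them the gene carrying the symbol SERPINA1 was low, at 2.06 to 3.76 CPM in CON and 1.23 to 7.20 CPM in LPS. The sum includes genes that went opposite ways. FGB had 8098 to 12715 CPM in CON and 14561 to 44960 CPM in LPS, and DESeq2 called it higher. So did edgeR without LPS replicate 2 (log2 fold change 1.75, adjusted p = 0.0436). ALB had 20307 to 38011 CPM in CON and 12381 to 19676 CPM in LPS. CPM are a gene's counts relative to the size of its library, with the size adjusted by TMM for differences in library composition. The TMM factor was 0.735 in LPS replicate 3 and 0.979 to 1.11 in the other libraries. All CPM of LPS replicate 3 are therefore higher than they would be by its library total. In bulk tissue, fewer cells of a type and less RNA per cell cannot be told apart.

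In brief, SOD2 transcript was higher in the LPS libraries by 14.9-fold on the group means, GCLC transcript was 5.84-fold lower, and the CON and LPS values of NFE2L2 and KEAP1 overlapped. The first 2 differences passed the test with DESeq2 and not with edgeR. A gene was called when the Benjamini-Hochberg adjusted p of edgeR's quasi-likelihood test, taken over all 12774 tested genes, was below 0.05 and the fold change above 1.5. By this rule 0 of the 10 genes were called in either direction. The background was similarly sparse, with 0.0548% of tested genes called higher and 0% called lower. At an unadjusted p below 0.05 in the same edgeR fit, 1 of the 10 genes (SOD2) was higher and 1 (GCLC) was lower, against 6.18% and 6.33% of the tested genes. DESeq2 called SOD2 higher and GCLC lower, where it called 1.85% of genes higher and 0.951% lower. Without LPS replicate 2, edgeR called SOD2 higher and GCLC and GSR lower, with 3.76% of genes called higher and 3.45% lower. The 10 log2 fold changes were positive for 5 genes and negative for 5, with a median of 0.08 beside 0.01 for all tested genes.

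**Figure D1:**
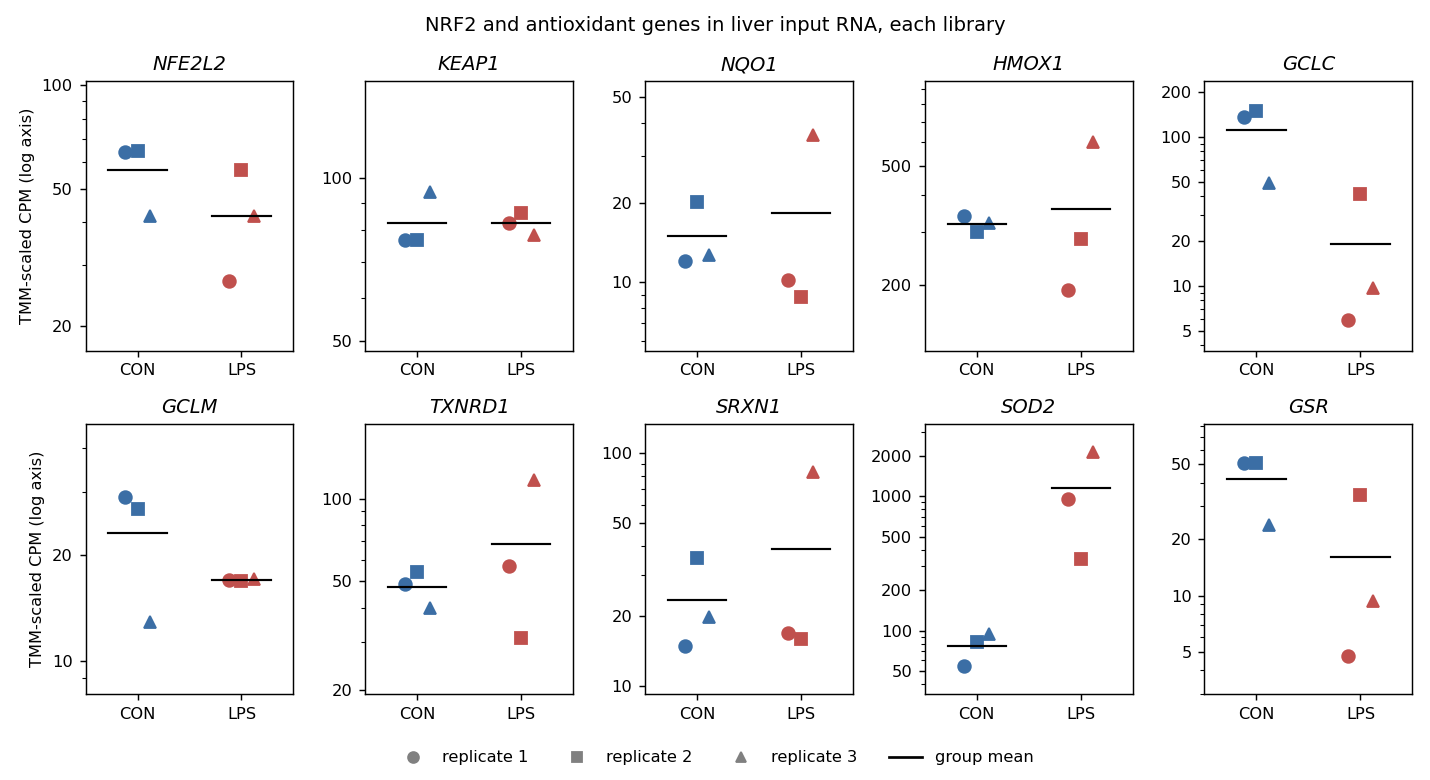
TMM-scaled CPM (log axis) of the 10 genes in the 3 CON and 3 LPS liver input libraries, with the marker shape giving the replicate number and the black line the group mean. All LPS values lie above all CON values for SOD2 and below them for GCLC, and the groups overlap for the other 8 genes.

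The regulator pair came first. NFE2L2, the gene of NRF2 (chromosome 15, 82973648 to 83146183, - strand in the coordinates of the deposited table), had 63.9, 64.4 and 41.6 CPM in CON replicates 1, 2 and 3 and 27.0, 56.6 and 41.7 CPM in LPS replicates 1, 2 and 3. LPS replicate 1 lay below every CON library, while LPS replicates 2 and 3 lay inside the CON range. The means were 56.6 ± 13.0 and 41.8 ± 14.8 CPM (SD, n = 3), and the log2 fold change of -0.44 (SE 0.35) did not pass edgeR's test (adjusted p = 0.650). It was -0.71 without LPS replicate 2 (adjusted p = 0.273). KEAP1, the sensor (chromosome 2, 69276336 to 69297835, - strand), had 76.9, 76.9 and 94.2 CPM in CON and 82.6, 86.2 and 78.5 CPM in LPS. Its 3 LPS values all lay within the CON range, with means of 19.0 ± 2.30 and 18.9 ± 0.884 CPM per kb of transcript (SD, n = 3) and a log2 fold change of 0.00 (SE 0.28). That estimate was the closest to 0 of the 10 genes, and its sign depended on the scaling, being slightly positive with DESeq2 (0.03).

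The number of NFE2L2 reads per KEAP1 read, corrected for transcript length, was compared within each library, since it does not depend on depth. The ratio was 0.948, 0.956 and 0.504 in CON replicates 1 to 3 and 0.373, 0.749 and 0.606 in LPS replicates 1 to 3. The groups overlapped, and the mean difference of -0.48 on the log2 scale gave p = 0.3 in a two-sided exact permutation test, in which 3 against 3 libraries cannot give less than 0.1. Both genes share exon bases with a neighbour, so their counts carry some uncertainty: NFE2L2 shares 128 bases with AGPS on the opposite strand and KEAP1 shares 260 bases with S1PR5 on the same strand. S1PR5 counts amounted to 3.05% to 6.93% of the KEAP1 counts in CON and 8.78% to 16.1% in LPS, and those of AGPS to 32.3% to 44.4% of the NFE2L2 counts in CON.

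Of the glutathione enzymes, GCLC encodes the catalytic subunit of glutamate-cysteine ligase, the rate-limiting enzyme of glutathione synthesis (chromosome 7, 27209564 to 27253535, + strand). Its level was 136, 148 and 49.4 CPM in CON replicates 1, 2 and 3 and 5.89, 41.4 and 9.76 CPM in LPS replicates 1, 2 and 3. Every LPS library was below every CON library, an arrangement found for 9.8% of the tested genes, although the gap between the lowest CON value and the highest LPS value was narrow. LPS replicates 1 and 3 kept 5.30% and 8.79% of the CON mean, and LPS replicate 2 kept 37.3%. The count of 27 reads in LPS replicate 1 gave an exact 95% Poisson interval of 3.88 to 8.57 CPM, which covers counting error alone. The means were 111 ± 53.7 and 19.0 ± 19.5 CPM (SD, n = 3), with a log2 fold change of -2.55 (SE 0.73) that missed the threshold in edgeR (adjusted p = 0.221). GCLC was called lower by DESeq2 (-2.51, SE 0.63, adjusted p = 0.00587) and by edgeR without LPS replicate 2 (-3.79, SE 0.56, adjusted p = 0.00411). The DESeq2 call was lost without CON replicate 1, CON replicate 2, LPS replicate 1 or LPS replicate 3 (DESeq2 adjusted p = 0.161, 0.140, 0.0824 and 0.419). Over 19 alternative settings the log2 fold change of GCLC ran from -3.79 to -2.09, and 5 of them called it lower (adjusted p from 2.298e-11 to 0.698 over edgeR, DESeq2 and limma-voom).

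GCLM, the modifier subunit that raises the efficiency of the same ligase (chromosome 4, 123371193 to 123390135, + strand), had overlapping groups. Its level was 29.2, 27.0 and 13.0 CPM in CON and 17.0, 16.9 and 17.1 CPM in LPS. The 3 LPS values were nearly equal and lay inside the CON range, and the log2 fold change was -0.44 (SE 0.36, edgeR adjusted p = 0.657). Per kilobase of transcript, GCLC exceeded GCLM by 5.81, 6.86 and 4.78 times in CON replicates 1 to 3. In LPS replicates 1 to 3 the ratio was 0.433, 3.08 and 0.716, so GCLC transcript was less abundant than GCLM transcript in LPS replicates 1 and 3. The ratio was lower in every LPS library than in every CON library, with a difference of -2.55 on the log2 scale and p = 0.1 in the two-sided exact permutation test, the smallest value that this design allows.

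GSR, glutathione reductase, returns oxidised glutathione to its reduced form with NADPH (chromosome 15, 54382567 to 54433989, + strand). Its CPM were 51.2, 50.6 and 23.8 in CON and 4.80, 34.2 and 9.42 in LPS. LPS replicates 1 and 3 lay below all CON libraries, and LPS replicate 2 lay inside the CON range, the same order of LPS libraries as for GCLC and NFE2L2. The means were 41.9 ± 15.6 and 16.1 ± 15.8 CPM (SD, n = 3), and the log2 fold change of -1.38 (SE 0.64) did not pass (edgeR adjusted p = 0.427; DESeq2 adjusted p = 0.293). Without LPS replicate 2 the log2 fold change was -2.51 (SE 0.48) and GSR was called lower by edgeR (adjusted p = 0.0131). Of 19 alternative settings 3 called it lower, with log2 fold changes from -2.51 to -0.91 and adjusted p from 2.286e-05 to 0.822 over edgeR, DESeq2 and limma-voom.

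**Figure D2:**
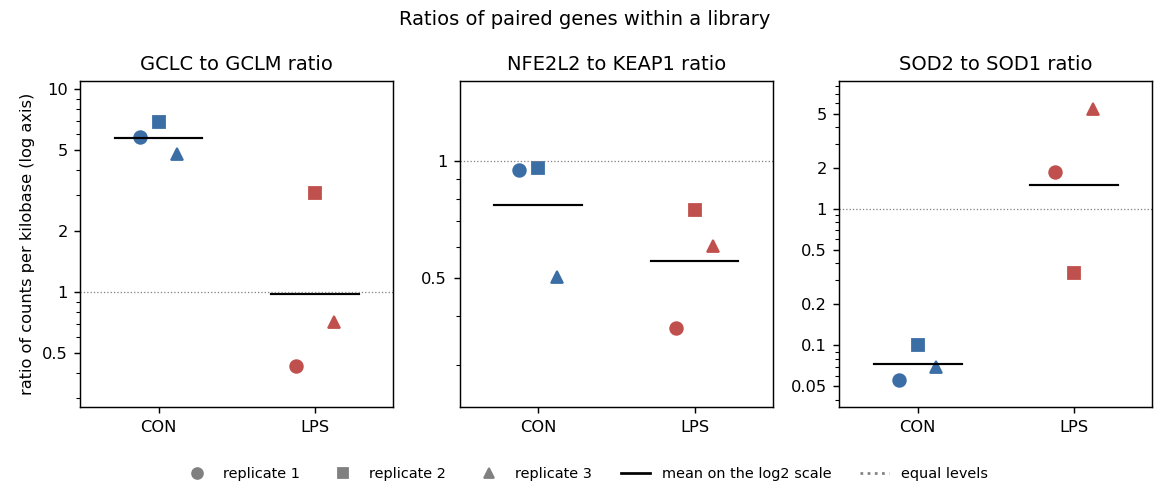
Ratios of counts per kilobase within each library (log axis) for GCLC to GCLM, NFE2L2 to KEAP1 and SOD2 to SOD1, with the dotted line at equal levels and the black line at the mean on the log2 scale. The GCLC to GCLM ratio lies between 4.78 and 6.86 in CON and between 0.433 and 3.08 in LPS, and SOD2 exceeds SOD1 in LPS replicates 1 and 3 alone.

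Among the thioredoxin system genes, TXNRD1 encodes the cytosolic thioredoxin reductase, a selenoprotein (chromosome 5, 80168523 to 80288075, - strand). It had 49.1, 54.2 and 39.9 CPM in CON and 56.9, 31.1 and 117 CPM in LPS. LPS replicates 1 and 3 lay above the CON range and LPS replicate 2 below it. SRXN1, sulfiredoxin, which reactivates over-oxidised peroxiredoxins (chromosome 17, 34582440 to 34589308, + strand), had 14.7, 35.5 and 19.8 CPM in CON and 16.8, 15.9 and 83.1 CPM in LPS. Only LPS replicate 3 exceeded the CON range. The log2 fold changes were 0.52 (SE 0.45) for TXNRD1 and 0.74 (SE 0.64) for SRXN1, and neither passed edgeR's test (adjusted p = 0.674 and 0.676). Without LPS replicate 3 both estimates turned negative, to -0.10 for TXNRD1 and -0.49 for SRXN1.

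NQO1 and HMOX1, often used as reporters of NRF2 activity, were likewise highest in LPS replicate 3. NQO1 encodes a quinone reductase that spares the cell from semiquinone radicals (chromosome 6, 17292769 to 17302590, + strand). Its CPM were 12.1, 20.2 and 12.7 in CON and 10.2, 8.83 and 36.0 in LPS. LPS replicates 1 and 2 lay below every CON library and LPS replicate 3 above every CON library. HMOX1, heme oxygenase 1, which breaks heme down to biliverdin, iron and carbon monoxide, lies on an unplaced contig of the table (1951725 to 1963831, + strand). It had 339, 301 and 321 CPM in CON, the tightest CON group relative to its mean, and 193, 284 and 599 CPM in LPS. Here too LPS replicates 1 and 2 lay below and LPS replicate 3 above the whole CON range. The counting intervals of LPS replicate 2 (270 to 297 CPM) and CON replicate 2 (288 to 315 CPM) overlapped.

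The log2 fold changes were 0.32 (SE 0.54) for NQO1 and 0.16 (SE 0.42) for HMOX1, with edgeR adjusted p of 0.836 and 0.906. Both turned negative without LPS replicate 3, to -0.63 and -0.41, and HMOX1 was also at -0.07 under scaling by the library total, a setting that moved the median of all genes to -0.12. The spread within the LPS group was thus wider than the difference between the groups: the SD of HMOX1 was 213 CPM in LPS against 18.8 CPM in CON. LPS replicate 3, in which NQO1, HMOX1, TXNRD1 and SRXN1 were highest, also had the highest summed level of 7 red blood cell or platelet genes (329 CPM, against 234 and 91.9 CPM in LPS replicates 1 and 2 and 73.5 to 101 CPM in CON) and of 9 neutrophil genes (326 CPM). Most of the 329 CPM came from HBB (246 CPM) and ALAS2 (71.8 CPM), while the platelet genes PPBP and GP9 had 1.78 and 0.683 CPM. HBB had 52.5 to 60.0 CPM in CON and 192 and 72.6 CPM in LPS replicates 1 and 2. It was not called by edgeR with all libraries (adjusted p = 0.218). DESeq2 called HBB higher (adjusted p = 0.0197), as did edgeR without LPS replicate 2 (log2 fold change 1.95, adjusted p = 0.00679). In LPS replicate 3 the 13 hepatocyte markers summed to 124280 CPM, against 61202 and 62044 CPM in LPS replicates 1 and 2. FGB alone had 44960 CPM of this sum, against 21935 and 14561 CPM in LPS replicates 1 and 2. Mitochondrial genes held 1.17% of the counts of LPS replicate 3, against 3.22% and 2.97%. The summed level of 12 Kupffer cell or macrophage genes was 1891 CPM in that library, inside the range of 1378 to 2325 CPM of the other LPS libraries. The part of these cells and of the library's make-up in the differences was not tested.

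SOD2, on chromosome 1 (7651280 to 7691723, + strand), had the highest fold change of the 10 genes. It had 54.2, 82.8 and 94.5 CPM in CON replicates 1, 2 and 3 and 959, 343 and 2143 CPM in LPS replicates 1, 2 and 3. Every LPS library exceeded every CON library, an arrangement found for 6.52% of the tested genes, and the lowest LPS value was well above the highest CON value. Relative to the CON mean the increase was 12.4-fold, 4.45-fold and 27.8-fold in LPS replicates 1, 2 and 3. The means were 77.2 ± 20.8 and 1148 ± 915 CPM (SD, n = 3), and the log2 fold change was 3.90 (SE 0.64). This ranked 22 of 12774 genes by p-value and missed the threshold in edgeR (adjusted p = 0.0715). DESeq2 called SOD2 higher (3.93, SE 0.55, adjusted p = 1.585e-09), as did edgeR without LPS replicate 2 (4.33, SE 0.46, adjusted p = 0.000831) and without LPS replicate 3 (3.09, SE 0.46, adjusted p = 0.0218). Over 19 alternative settings the log2 fold change of SOD2 ran from 3.09 to 4.37, and 12 of them called it higher, among them DESeq2 with each library left out. The adjusted p of these settings ran from 3.559e-20 (DESeq2 without LPS replicate 2) to 0.586 (edgeR without CON replicate 1).

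SOD2 transcript shares 682 exon bases with WTAP on the opposite strand. The library kit keeps strand, but the sources used here do not say how strand entered the counting. WTAP had 404, 260 and 380 counts in CON and 274, 211 and 1523 in LPS, while SOD2 had 606, 530 and 956 counts in CON and 4399, 2097 and 31389 in LPS. The WTAP counts were thus 66.7%, 49.1% and 39.8% of the SOD2 counts in CON replicates 1 to 3 and 4.85% to 10.1% of them in the LPS libraries. The part of the shared bases in the CON level of SOD2 was not tested. SOD1, the cytosolic copper-zinc superoxide dismutase, had 633, 540 and 893 CPM in CON and 336, 662 and 257 CPM in LPS, and its groups overlapped (log2 fold change -0.72, SE 0.41, edgeR adjusted p = 0.511). Per kilobase, SOD2 stood at 0.0562, 0.101 and 0.0694 of the SOD1 level in CON replicates 1 to 3, and at 1.87, 0.340 and 5.46 of it in LPS replicates 1 to 3. The difference was 4.37 on the log2 scale and higher in 3 of 3 LPS libraries, with p = 0.1 in the two-sided exact permutation test, its smallest possible value.

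Marker genes of blood cells and macrophages were set beside SOD2. Of 7 tested neutrophil markers 6 had a positive log2 fold change, with a median of 2.91, and 1 of them, S100A8, named after its values were seen, was called by edgeR. The summed level of the neutrophil genes was 22.7 to 34.2 CPM in CON and 178, 88.7 and 326 CPM in LPS replicates 1, 2 and 3, the same order as SOD2. MMP8, a neutrophil collagenase, had 0 counts in all 3 CON libraries and 18, 5 and 271 counts in the LPS libraries, and the granule genes MPO and ELANE stayed at 3 to 19 counts in every library. Of 12 Kupffer cell or macrophage markers 0 had a positive log2 fold change, and their summed level was 2027 to 3271 CPM in CON and 1378 to 2325 CPM in LPS. The part of these cells in the SOD2 difference was not tested.

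**Figure D3:**
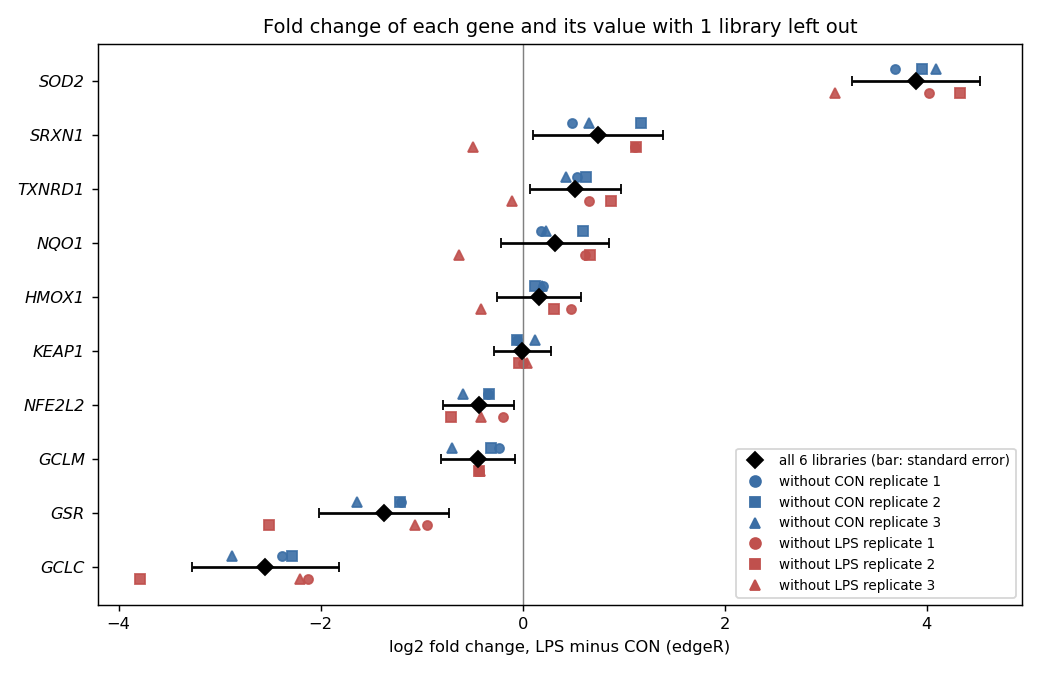
Log2 fold change of each gene (LPS minus CON, edgeR) with all 6 libraries (diamond, bar giving the standard error) and with 1 library left out (blue for CON, red for LPS, shape giving the replicate). SOD2 stays above 3 and GCLC below -2 in each case, GCLC and GSR lie lowest without LPS replicate 2, and SRXN1, TXNRD1, NQO1 and HMOX1 fall below 0 without LPS replicate 3.

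The order of the 10 genes by level was compared per kilobase of transcript. In the CON libraries HMOX1 was the most abundant (69.4 ± 4.08 CPM per kb, SD, n = 3) and lay apart from GCLC (27.2). KEAP1 (19.0), SOD2 (16.6), NFE2L2 (14.8), GSR (14.6), SRXN1 (9.39), TXNRD1 (8.38) and NQO1 (7.85) came next, and each of these overlapped its neighbour in the order. GCLM was lowest (4.51) and lay apart from NQO1. HMOX1 stood at the 96.2 percentile of all tested genes and GCLM at the 57.0 percentile. In the LPS libraries SOD2 came first (247 CPM per kb, 73.9 to 461), above HMOX1 (77.6, 41.8 to 130) in 3 of 3 although the ranges overlapped. HMOX1 lay apart from KEAP1 (18.9), and the ranges of the other neighbours overlapped down to GSR (5.63), GCLC (4.65) and GCLM (3.32). GCLC was second in CON and ninth in LPS.

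The 3 LPS libraries differed from each other in these genes. Relative to the CON mean, 4 of the 10 genes were more than 1.5-fold lower and 1 (SOD2) more than 1.5-fold higher in LPS replicate 1, with a median log2 difference of -0.51. In LPS replicate 2 the corresponding numbers were 3 and 1, with a median of -0.37. In LPS replicate 3 only 2 genes (GCLC and GSR) were lower and 5 (SOD2, SRXN1, TXNRD1, NQO1 and HMOX1) were higher, with a median of 0.41. These numbers depend on the TMM factor of that library (0.735), and those under scaling by the library total are not given here. In CON replicates 1, 2 and 3 the numbers of genes lower were 1, 0 and 3, and of genes higher 0, 1 and 0. The same counts over all tested genes are not given here. The mean absolute log2 difference was 1.45, 0.65 and 1.67 in LPS replicates 1, 2 and 3, and 0.26 to 0.45 in the CON libraries. The CON mean includes each CON library itself, which makes the CON differences smaller. Of the 10 genes, GCLC and SOD2 were those that differed by more than 1.5-fold in the same direction in all 3 LPS libraries. For GCLC, CON replicate 3 was also more than 1.5-fold lower, at 44.5% of the CON mean.

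Genes with the most similar pattern were sought by the Pearson correlation of log2 CPM with each of 10755 other genes that carry a symbol, over the 6 libraries. The points share 6 libraries and their depths, so the values are descriptions. For SOD2 these were EBI3 (r = 0.997), EMP1 (0.996) and TIMP1 (0.995). TIMP1, an inhibitor of metalloproteinases, had 16.0, 16.7 and 32.2 CPM in CON and 578, 175 and 2276 CPM in LPS. For HMOX1 they were MFSD14B (0.989), FRMD6 (0.988) and FOXP1 (0.986), and for NFE2L2 they included PPP2R5D (0.993) and ARHGAP18 (0.987).

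The 10 genes were then set beside 8 lists of the wider antioxidant system, in which they are included. Outside the 10, 104 list genes were tested, and 0 of them were called by edgeR. Of these, 67 had a negative and 37 a positive log2 fold change, with a median of -0.26. The unadjusted p was below 0.05 for 22 lower and 4 higher genes, that is, 21.2% and 3.85% against 6.33% and 6.18% of all tested genes. All LPS libraries lay below all CON libraries for 29 genes (27.9%, against 9.8% of all tested genes) and above them for 7 (6.73%, against 6.52%). DESeq2 called 6 of 103 lower and 0 higher, against 0.951% and 1.85% of all genes it tested. Without LPS replicate 2 edgeR called 12 lower and 1 higher, against 3.45% and 3.76% of all genes tested there. Of the 13 hepatocyte markers, 7 had a negative and 6 a positive log2 fold change, with a median of -0.16. All LPS libraries lay below all CON libraries for 3 of the 13 (ALB, CYP2E1 and ASGR1) and above them for 1 (FGB), against 9.8% and 6.52% of all tested genes. The part of hepatocyte RNA in the differences of the list genes was not tested.

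**Figure D4:**
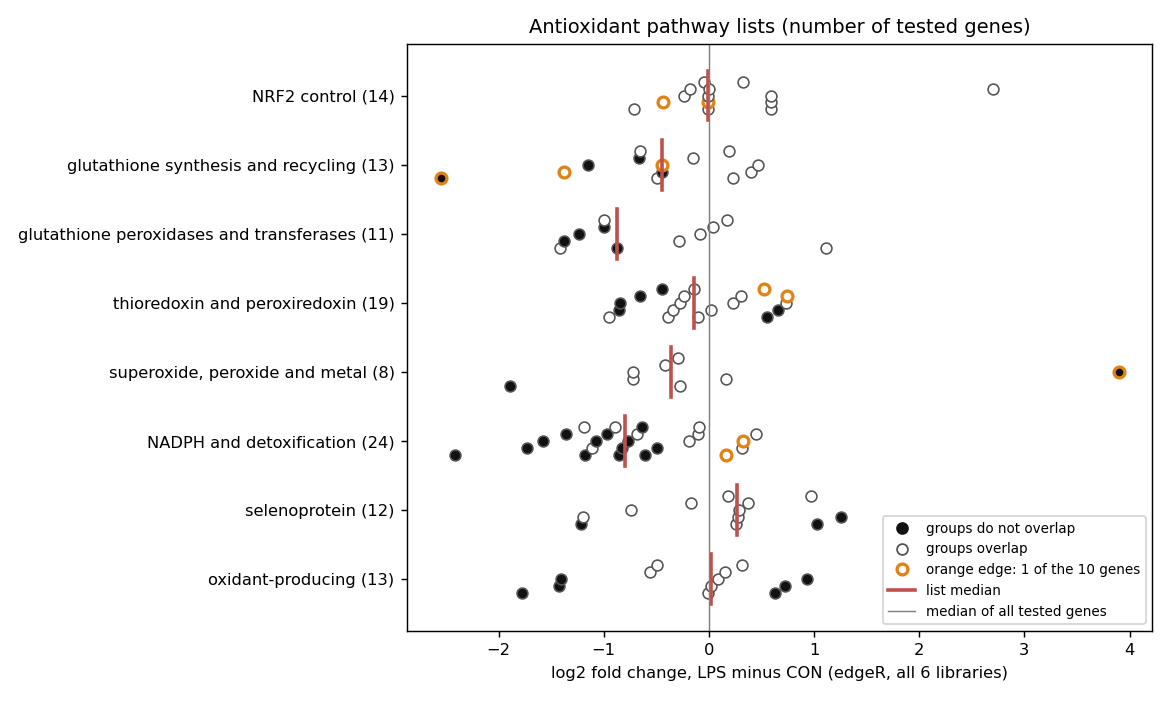
Log2 fold change (LPS minus CON, edgeR, all 6 libraries) of each tested gene in 8 antioxidant lists, filled where the 2 groups of libraries do not overlap, orange-edged for the 10 genes, with the list median in red. The list medians run from -0.88 for glutathione peroxidases and transferases to 0.27 for selenoproteins, and SOD2 and GCLC lie at the extremes.

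In the list of NRF2 control genes (14 tested, with NFE2L2 and KEAP1) the median log2 fold change was 0.00 and 0 genes had non-overlapping groups. DESeq2 called 0 of the 13 for which it gave an adjusted p, and gave none for MAFF, the 1 gene whose unadjusted edgeR p was below 0.05. SQSTM1, the autophagy receptor that sequesters KEAP1, had 322, 519 and 395 CPM in CON and 321, 459 and 1077 CPM in LPS. NFE2L1, a relative of NFE2L2, was at 398 ± 71.1 and 338 ± 9.94 CPM (SD, n = 3), and the KEAP1-binding protein DPP3 was at 65.6 ± 35.5 and 82.2 ± 42.3 CPM. MAFF, a small Maf partner, had 8.58, 14.5 and 6.23 CPM in CON and 8.50, 4.09 and 175 CPM in LPS, so that its log2 fold change of 2.70 (SE 1.18, edgeR adjusted p = 0.392) rested on LPS replicate 3. BTRC (-0.71) and PGAM5 (0.59) had overlapping groups.

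In the list of glutathione synthesis and recycling (13 tested), 9 genes had a negative log2 fold change and the median was -0.45. GCLC was the one that DESeq2 called, and all LPS libraries lay below all CON libraries for 4 genes, GCLC among them. ANPEP, aminopeptidase N, had 150, 94.4 and 166 CPM in CON and 64.3, 66.9 and 53.9 CPM in LPS (log2 fold change -1.15, SE 0.33, edgeR adjusted p = 0.221). GLRX5, a mitochondrial glutaredoxin, was at 98.0 ± 12.1 CPM in CON and 61.7 ± 4.65 CPM in LPS (SD, n = 3; -0.67). SLC3A2, the heavy chain of the cystine transporter (0.19), and GGCT (-0.65) had overlapping groups.

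The list of glutathione peroxidases and transferases (11 tested) had a median of -0.88, with 8 genes negative and 3 positive. GSTK1, a peroxisomal and mitochondrial transferase, had 200, 207 and 280 CPM in CON and 76.3, 112 and 105 CPM in LPS, with no overlap, and was called lower by DESeq2 (adjusted p = 0.0302; edgeR log2 fold change -1.23, SE 0.32, adjusted p = 0.200). GSTZ1 (84.0 ± 18.6 and 41.9 ± 10.5 CPM) and MGST2 (log2 fold change -1.38) were also below in all 3 LPS libraries, and MGST2 was called lower by edgeR without LPS replicate 2 (-2.01, adjusted p = 0.0248). GPX3, the plasma glutathione peroxidase, was at 90.4 ± 0.437 and 93.0 ± 24.2 CPM (SD, n = 3), and GSTO1 was at 206 ± 13.5 and 194 ± 32.1 CPM. Transferases belong to families of similar sequence, and the sources used here do not say how reads shared between copies were counted.

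The thioredoxin and peroxiredoxin list (19 tested) split, with 8 genes positive, 11 negative and a median of -0.14. DESeq2 called 0 of them, and the unadjusted edgeR p was below 0.05 for 1, PRDX3. PRDX3, the mitochondrial peroxiredoxin, had 97.6, 80.1 and 73.9 CPM in CON and 29.4, 61.8 and 48.1 CPM in LPS (-0.85, SE 0.34, edgeR adjusted p = 0.356). The methionine sulfoxide reductases MSRA (-0.65) and MSRB2 (-0.84) were below in all 3 LPS libraries. PRDX4, a peroxiredoxin of the endoplasmic reticulum, and TXNRD3, a thioredoxin reductase, both named after their values were seen, lay above in all 3. PRDX4 had 132, 124 and 136 CPM in CON and 187, 206 and 181 CPM in LPS. PRDX1, the main cytosolic peroxiredoxin, was at 84.0 ± 23.9 and 85.0 ± 19.8 CPM, and TXNIP, which binds thioredoxin, was at 138 ± 32.7 and 128 ± 24.7 CPM (SD, n = 3).

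Among genes for superoxide, peroxide and metals (8 tested), SOD2 was the one above in every LPS library and CAT the one below. CAT, catalase, which destroys hydrogen peroxide in peroxisomes, had 1266, 1623 and 1295 CPM in CON and 117, 586 and 425 CPM in LPS. All LPS values were less than the lowest CON value, with a log2 fold change of -1.89 (SE 0.52, edgeR adjusted p = 0.218) and a DESeq2 adjusted p of 0.0144. Without LPS replicate 2 edgeR called CAT lower (-2.36, adjusted p = 0.0269). FTL, the ferritin light chain, was at 4421 ± 474 and 3610 ± 666 CPM, the gene carrying the symbol MT3, a metallothionein, was at 749 ± 222 and 620 ± 236 CPM, and UCP2, a mitochondrial carrier, was at 35.5 ± 6.40 and 21.4 ± 9.02 CPM (SD, n = 3), all with overlapping groups.

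The list of NADPH supply and detoxification was the largest of the 8 lists (24 tested, with NQO1 and HMOX1). It held 20 negative and 4 positive log2 fold changes and a median of -0.80. All LPS libraries lay below all CON libraries for 13 of the 24, against 9.8% of all tested genes. DESeq2 called UGDH, ALDH1A1 and ABCC3 lower. ALDH1A1, an aldehyde dehydrogenase, had 900, 466 and 474 CPM in CON and 36.6, 130 and 177 CPM in LPS (-2.42, SE 0.56, edgeR adjusted p = 0.156; DESeq2 adjusted p = 0.000887). UGDH, which makes the sugar donor for glucuronidation, had 75.8, 52.0 and 48.2 CPM in CON and 16.6, 19.3 and 23.0 CPM in LPS (-1.57, SE 0.32, edgeR adjusted p = 0.104). ABCC3, an exporter of conjugates, was at 64.1 ± 7.60 and 24.9 ± 4.95 CPM (-1.36), and EPHX1, microsomal epoxide hydrolase, at 1026 ± 122 and 487 ± 161 CPM (-1.07; SD, n = 3), both without overlap. Without LPS replicate 2, edgeR called ALDH1A1 (-2.51, adjusted p = 0.0468), UGDH (-1.56, adjusted p = 0.0313) and ABCC3 (-1.44, adjusted p = 0.0334) lower. NQO2 (-0.69) and TALDO1 (-0.09) had overlapping groups, as NQO1 and HMOX1 did.

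Selenoproteins (12 tested) had a positive median of 0.27, with 8 genes positive and 4 negative. DESeq2 called 0 of them, and the unadjusted edgeR p was below 0.05 for 2, SELENOH and SELENOM. SELENOH had 20.5, 28.4 and 28.1 CPM in CON and 67.4, 40.4 and 49.1 CPM in LPS, and SELENOM, a protein of the endoplasmic reticulum, was at 10.9 ± 2.79 and 26.1 ± 10.8 CPM (SD, n = 3). Both lay above in every LPS library (edgeR adjusted p = 0.247 and 0.256), and SELENOM was called higher by edgeR without LPS replicate 2 (1.51, adjusted p = 0.0356). SELENOS (0.97), SELENOO (0.29) and DIO1, the deiodinase of liver (-1.20), had overlapping groups.

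Oxidant-producing genes (13 tested) had a median of 0.02, with 3 genes above and 3 below in every LPS library. XDH, xanthine oxidoreductase, had 158, 153 and 182 CPM in CON and 35.3, 79.5 and 29.3 CPM in LPS, and DESeq2 called it lower (adjusted p = 0.00521; edgeR log2 fold change -1.78, SE 0.41, adjusted p = 0.160). AOX1, aldehyde oxidase, was at 454 ± 112 and 172 ± 82.1 CPM (SD, n = 3), with a log2 fold change of -1.40. Without LPS replicate 2, edgeR called XDH (-2.35, adjusted p = 0.00481) and AOX1 (-1.80, adjusted p = 0.0290) lower. CYBA, a subunit of the phagocyte NADPH oxidase, was at 37.6 ± 16.9 and 46.8 ± 17.6 CPM with overlapping groups.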

How the data were processed

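Input RNA of 3 CON and 3 LPS libraries was measured. The table deposited by the authors holds unnormalized read counts for each gene, with coordinates and gene lengths. The submitters' processing notes name cutadapt 1.9.3 and HISAT2. The sources used here do not give the counting program, its strand setting or the pig genome build, and the notes name chicken and human builds. Of 13830 symbols also placed in RefSeq's Sscrofa11.1 annotation, 98.9% overlapped their position there. Columns were matched to libraries by group and replicate number, and 0 sample columns were left unmapped. CON replicates 1 and 2 have 2 sequencing entries each and 1 column each. Symbols came from a table pairing 15029 of 31908 pig Ensembl identifiers.

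The groups were compared by edgeR 4.0.16 under R 4.3.3 (filterByExpr with a minimum count of 10, TMM, glmQLFit with robust estimation, glmQLFTest). Calls needed an adjusted p below 0.05 and a fold above 1.5. Standard errors were derived from the log2 fold change and the edgeR F statistic (absolute value over root F). Alternatives used RLE factors, total counts, other filters, DESeq2 1.42.0, limma-voom (limma 3.58.1), other fold thresholds, a replicate block and leaving out each library. DESeq2 with each library left out was added after seeing the data. On simulated data for LPS against CON (12774 genes, 200 changed), edgeR recovered 1.49%, 49.3% and 95.5% of genes changed by 1, 2 and 3 on the log2 scale, with 5 wrong calls. The simulation gave each gene the same dispersion in both groups and held no LPS library lying near CON. These shares therefore cannot be read as the power of the test in the real libraries.

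The members, the 8 pathway lists, the 8 marker lists and the tests were chosen with earlier results of these data known. Of 234 listed genes 198 are in the table. Genes named from a pathway list were those called, the 3 with the highest mean CPM per kb and the 3 with the lowest p outside the members. For NFE2L2, HMOX1 and SOD2 the 3 most correlated genes were named. A few genes that these rules select are not reported here. Immunoprecipitated libraries were not analysed here.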

Additional observations from a re-analysis of the deposited data

How the results depend on the processing

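Calls depended strongly on the tool and on single libraries. Against 7 genes higher and 0 lower, the counts were 8 and 1 with RLE factors, 11 and 1 with total counts, 536 and 349 without a filter, 0 and 0 with at least 10 counts in every library, 275 and 141 with DESeq2 and 4 and 2 with limma-voom. With 1 library left out, edgeR and DESeq2 gave 0 to 791 genes higher and 0 to 752 lower, both maxima being without LPS replicate 2. Of the 10 antioxidant genes, 1 was called higher (SOD2) with total counts, without a filter and with DESeq2, and 0 to 1 with a library left out. GCLC was called lower by DESeq2 (1 gene), GCLC and GSR without a filter (2 genes), and 0 to 2 genes with a library left out. The sample labels do not state that replicate numbers pair the samples. Deviations from the group means correlated with r of -0.24, 0.22 and 0.03 for the same numbers. For different numbers r ran from -0.25 to 0.22. With so few libraries these correlations cannot exclude a pairing. With a replicate block edgeR called 42 genes higher and 9 lower, and 1 of the 10 genes higher (SOD2) and 0 lower.

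Over 190 estimates for the 10 genes, 22 changed sign, 20 became called and 148 did neither. KEAP1 changed sign with RLE factors (0.0342), DESeq2 (0.0325), limma-voom (0.0014) and the replicate block (0.0013), and ranged from -0.0574 to 0.15 with a library left out. HMOX1 was at -0.0721 with total counts, -0.0135 with limma-voom and -0.0024 with the replicate block. Without LPS replicate 3, edgeR and DESeq2 gave -0.63 and -0.61 for NQO1, -0.41 and -0.39 for HMOX1, -0.10 and -0.08 for TXNRD1, and -0.49 and -0.48 for SRXN1. With a library left out, the highest values were 0.69 for NQO1, 0.52 for HMOX1, 0.91 for TXNRD1 and 1.202 for SRXN1. The cause was not tested. Counts of 27 for GCLC and 22 for GSR in LPS replicate 1 were the lowest of the 10 genes.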
